A study of Mus musculus with 4 samples.

Results

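The 10 genes described here encode the enzymes that turn cholesterol into bile acids and join them to an amino acid in the liver. They are Cyp7a1 and Cyp8b1 of the classic pathway, Cyp27a1 and Cyp7b1 of the alternative pathway, Hsd3b7 and Akr1d1, which modify the steroid ring in both, Acox2 and Amacr, which act on the side chain in peroxisomes, and Slc27a5 and Baat, which carry out conjugation. They were chosen by name, each through the array row whose platform annotation gives that gene alone. All 10 were found, with 1 row each, among 22180 genes measured. The arrays hold liver RNA of wild-type male mice of the inbred strain C57BL/6J, assigned at random at 6 weeks of age to a diet lacking methionine and choline (MCD diet) or a normal diet for 20 weeks. Each diet had 2 samples, hybridised to 1 Mouse Gene ST array each, for 4 arrays in all. Mice on the MCD diet develop a fatty, inflamed liver. The model differs from the fatty liver of obesity in that the animals lose weight. The sample names speak of mice with a number, and no label says whether an array holds RNA of 1 animal, so p-values here cover only the variation from sample to sample, which may be technical.

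Bile acids are the main route by which the body disposes of cholesterol, and they solubilise dietary fat in the gut. In the classic pathway Cyp7a1 makes the first and rate-limiting hydroxylation of cholesterol, and Cyp8b1 sets how much of the product becomes cholic acid. In the alternative pathway Cyp27a1 first oxidises the side chain in mitochondria, and Cyp7b1 then hydroxylates the ring of the resulting oxysterols. Transcription of Cyp7a1 is held down by bile acids through the receptor encoded by Nr1h4 (FXR), which induces the repressor encoded by Nr0b2 (SHP).

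The alternative pathway enzymes fell together in MCD diet livers, Cyp7b1 by far the most among the 10 enzymes. Cyp7b1 had log2 signals of 5.04 and 5.37 in MCD diet livers, against 9.13 and 9.47 in normal diet livers. Every MCD diet array lay far below both normal diet arrays. The difference, MCD diet minus normal diet, was -4.09 ± 0.18 on the log2 scale (± is the standard error of the difference throughout, n = 2 arrays per diet), or 17.1-fold lower, with an adjusted p of 0.000349 from limma over all genes tested. It was the 13th largest decrease among the 22180 genes. Cyp27a1 had log2 signals of 8.03 and 8.13 in MCD diet livers, against 9.47 and 9.61 in normal diet livers. Its difference was -1.46 ± 0.13, or 2.75-fold lower (limma adjusted p = 0.00227). The replicates of each diet lay close together, and the diets did not overlap for either gene. Both calls held with any array left out.

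**Figure D1:**
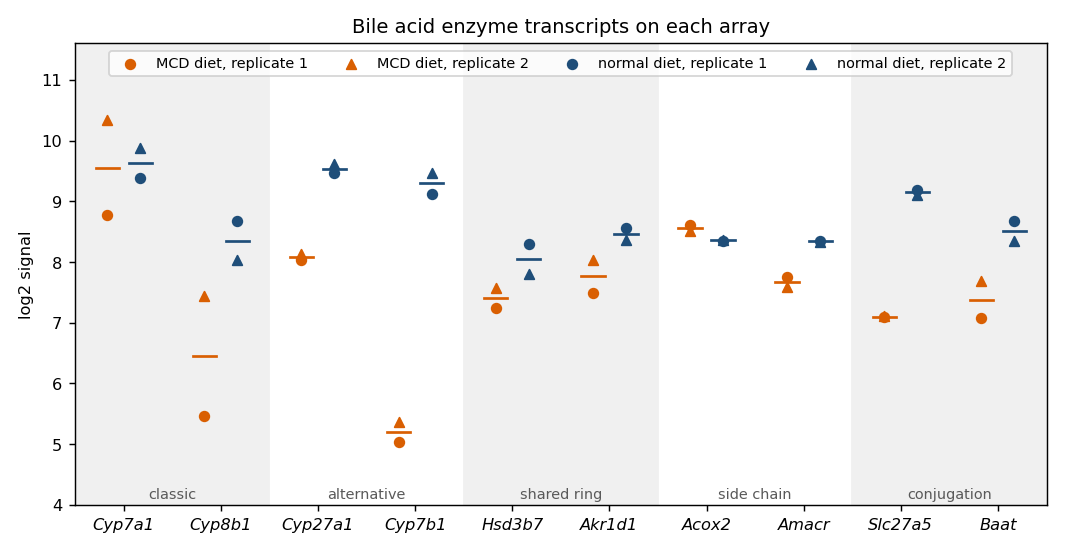
Log2 signal (vertical axis) of the 10 enzymes on each of the 4 arrays, with MCD diet in orange to the left of normal diet in blue, circles for replicate 1, triangles for replicate 2 and bars for the mean of each diet. Signals of different genes are not comparable with each other. The MCD diet points of Cyp7b1, Cyp27a1 and Slc27a5 sit tightly below the normal diet points, while those of Cyp7a1 and Cyp8b1 are spread apart.

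The classic pathway enzymes did not pass the test, and their MCD diet replicates differed widely. Cyp7a1 had log2 signals of 8.78 and 10.34 in MCD diet livers, against 9.38 and 9.88 in normal diet livers. The lowest and the highest of these 4 values are both from MCD diet arrays, so the normal diet arrays lie between them. The difference was -0.07 ± 0.49 (limma adjusted p = 0.952), with a 95% interval from -1.26 to 1.11, so that a change of about 2-fold in either direction lies within it. Cyp8b1 had log2 signals of 5.47 and 7.43 in MCD diet livers, against 8.68 and 8.03 in normal diet livers. Both MCD diet arrays lay below both normal diet arrays, MCD diet replicate 1 much further than replicate 2. The difference was -1.90 ± 0.61, or 3.74-fold lower, and missed the threshold (limma adjusted p = 0.117, 95% interval -3.38 to -0.42). Without MCD diet replicate 2 the difference of Cyp8b1 was -2.88 and passed (limma adjusted p = 0.00998), and without MCD diet replicate 1 it was -0.92 (limma adjusted p = 0.184).

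On MCD diet replicate 2 the signal of Cyp7a1 was 1.56 higher on the log2 scale than on replicate 1, and that of Cyp8b1 was 1.97 higher. Gaps of that size between the MCD diet arrays were rare, since 0.0902% of all genes had a larger one than Cyp7a1 and 0.0451% a larger one than Cyp8b1. The same gap was 0.325 for Cyp7b1, 0.105 for Cyp27a1 and 0.0123 for Slc27a5. Leaving out MCD diet replicate 1 turned the difference of Cyp7a1 to 0.71, and leaving out replicate 2 gave -0.86, neither of which passed (limma adjusted p = 0.215 and 0.125). Of the other enzymes Baat (0.615), Akr1d1 (0.549) and Hsd3b7 (0.336) were also higher on replicate 2, while Acox2 (-0.097) and Amacr (-0.174) were lower. These gaps were less rare. A larger one was found for 3.21% of all genes beside Baat, 4.72% beside Akr1d1 and 17.2% beside Hsd3b7, whose gap was near that of Cyp7b1. Between the normal diet arrays, Cyp7a1 (0.501), Cyp7b1 (0.341), Cyp27a1 (0.146) and Acox2 (0.023) were higher on replicate 2. Lower there were Cyp8b1 (-0.650), Hsd3b7 (-0.499), Baat (-0.321), Akr1d1 (-0.196), Slc27a5 (-0.075) and Amacr (-0.019). Of all genes 2.39% had a larger normal diet gap than Cyp8b1, 5.87% than Cyp7a1 and 5.93% than Hsd3b7.

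Set against each other, the classic pair differed less between the diets than the alternative pair. The mean log2 difference was -0.99 for Cyp7a1 and Cyp8b1 and -2.78 for Cyp27a1 and Cyp7b1, a gap of 1.79 that stands as a description with no test. The gap was 1.02 without MCD diet replicate 2 and 2.56 without MCD diet replicate 1. Taken within each array as the classic mean minus the alternative mean, the quantity was 0.59 and 2.14 on the MCD diet arrays, against -0.27 and -0.59 on the normal diet arrays, and its larger SD between replicates, that of the MCD diet, was 1.10. Its zero has no meaning, since signals of different genes are not on one scale, but both MCD diet arrays lay above both normal diet arrays. How the gap divides depends on which enzymes are set against each other. Between the enzymes that hydroxylate the same ring position in each pathway, the diet difference of Cyp7a1 exceeded that of Cyp7b1 by 4.02, and the 95% intervals of these differences, -1.26 to 1.11 for Cyp7a1 and -4.53 to -3.66 for Cyp7b1, do not meet. In this pairing the other 2 enzymes went the opposite way, since the diet difference of Cyp8b1 minus that of Cyp27a1 was -0.44. The 95% intervals of Cyp8b1 (-3.38 to -0.42) and Cyp27a1 (-1.77 to -1.15) overlap. Paired the other way, both contrasts were above 0. The diet difference of Cyp7a1 exceeded that of Cyp27a1 by 1.39, and that of Cyp8b1 exceeded that of Cyp7b1 by 2.19.

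**Figure D2:**
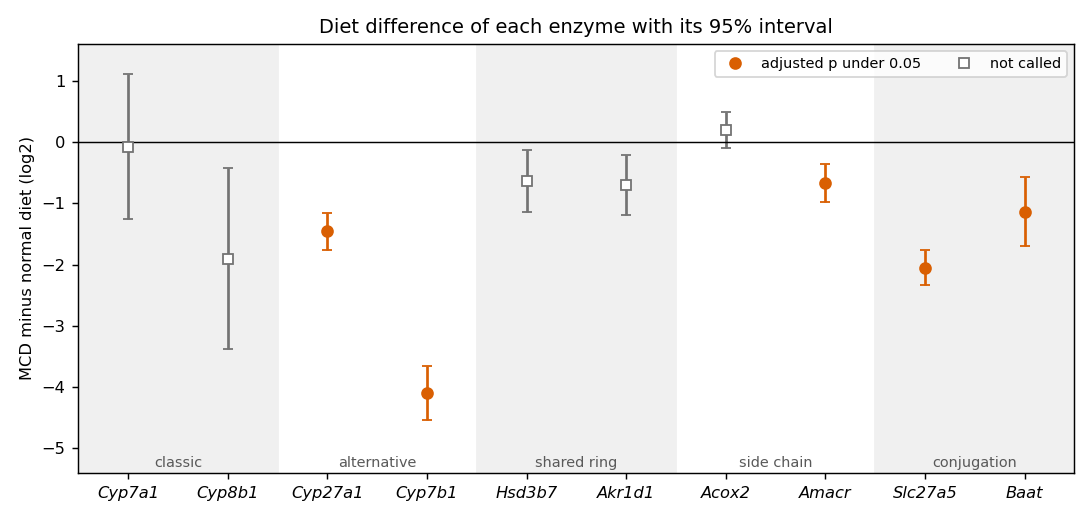
Difference in log2 signal, MCD diet minus normal diet (vertical axis), of the 10 enzymes in pathway order, with 95% intervals from limma as bars. Filled orange circles passed an adjusted p of 0.05 and open grey squares did not. The intervals of Cyp7a1 (-1.26 to 1.11) and Cyp8b1 (-3.38 to -0.42) are the widest of the 10, and Cyp7b1, at -4.09, lies furthest from 0.

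RefSeq promoter windows, which run from 250 bases before to 50 after a transcript start on GRCm38.p6, were matched for 5 of the 10 genes, namely Cyp8b1, Cyp27a1, Hsd3b7, Akr1d1 and Acox2. The pair below gives the 250 bases before the start of 1 enzyme from each pathway, Cyp27a1, which fell, and Cyp8b1, which did not pass, and capitals mark matches to the motifs searched. The Cyp27a1 window is chr1:74713285-74713534 on the plus strand, inside the annotated span of the gene, which has another start further upstream. The Cyp8b1 window is chr9:121916306-121916555 on the minus strand.
Cyp27a1: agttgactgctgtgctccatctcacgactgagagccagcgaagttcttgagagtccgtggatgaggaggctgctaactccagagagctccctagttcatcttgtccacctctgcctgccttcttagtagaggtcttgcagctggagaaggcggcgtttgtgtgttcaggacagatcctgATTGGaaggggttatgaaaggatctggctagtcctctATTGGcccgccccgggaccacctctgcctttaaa
Cyp8b1: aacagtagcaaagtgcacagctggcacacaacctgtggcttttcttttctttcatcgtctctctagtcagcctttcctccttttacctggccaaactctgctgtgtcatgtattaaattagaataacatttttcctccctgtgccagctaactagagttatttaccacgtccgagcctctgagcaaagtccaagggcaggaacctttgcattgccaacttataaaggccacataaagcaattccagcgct

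The motifs searched, on both strands over the whole window, were AGGTCA (a half-site of nuclear receptors), CAAGGTC (a site of the type bound by the product of Nr5a2, overlapping the half-site) and CCAAT. Cyp27a1 held CCAAT on the minus strand at 2 places, starting 71 and 34 bases before the start, and Cyp8b1 held 0 matches to the 3 motifs. Of the other windows, Akr1d1 held AGGTCA at 2 places and 1 of the 2 windows of Acox2 held CCAAT. Among all 32851 windows 37.4% hold CCAAT, 16.3% AGGTCA and 3.96% CAAGGTC. These are matches of letters only and were not set against the diet differences.

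The enzymes of the steroid ring lay lower in MCD diet livers by smaller amounts that missed the threshold. Hsd3b7, the dehydrogenase that oxidises the ring hydroxyl group, had log2 signals of 7.24 and 7.58 in MCD diet livers, against 8.30 and 7.80 in normal diet livers. Its difference was -0.64 ± 0.21 (limma adjusted p = 0.124). Akr1d1, the reductase that bends the ring system into its bile acid shape, had log2 signals of 7.49 and 8.04 in MCD diet livers, against 8.56 and 8.37 in normal diet livers. Its difference was -0.70 ± 0.20 (limma adjusted p = 0.0915), and it passed only without MCD diet replicate 2 (-0.98, limma adjusted p = 0.0376). For both genes each MCD diet array lay below each normal diet array.

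Of the enzymes that shorten the side chain, one fell slightly and the other did not pass. Amacr, the racemase that turns the side chain into the form the oxidase accepts, had log2 signals of 7.76 and 7.59 in MCD diet livers, against 8.35 and 8.33 in normal diet livers. It fell by 0.67 ± 0.13, or 1.59-fold (limma adjusted p = 0.0263). This call was lost with any 1 array left out, at differences of -0.76 to -0.58 and adjusted p-values up to 0.108. Acox2, the branched-chain oxidase that acts next, had log2 signals of 8.61 and 8.51 in MCD diet livers, against 8.35 and 8.37 in normal diet livers. It was the only one of the 10 enzymes whose MCD diet arrays both lay above the normal diet arrays, by 0.20 ± 0.12 (limma adjusted p = 0.383, 95% interval -0.09 to 0.49). The interval of Amacr, -0.98 to -0.36, does not meet that of Acox2.

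Both enzymes of conjugation fell. Slc27a5, the ligase that activates bile acids with coenzyme A, had log2 signals of 7.09 and 7.10 in MCD diet livers, against 9.19 and 9.11 in normal diet livers. The replicates of each diet were nearly equal and the diets far apart. The difference was -2.05 ± 0.12, or 4.15-fold lower (limma adjusted p = 0.00064). Baat, the transferase that joins the activated bile acid to taurine or glycine, had log2 signals of 7.07 and 7.69 in MCD diet livers, against 8.67 and 8.35 in normal diet livers. It fell by 1.14 ± 0.23, or 2.20-fold (limma adjusted p = 0.0333). The call of Baat was lost without MCD diet replicate 1 (-0.83, limma adjusted p = 0.0969), without normal diet replicate 1 (-0.97, limma adjusted p = 0.123), without normal diet replicate 2 (-1.30, limma adjusted p = 0.0705) and with the replicate number as a block (limma adjusted p = 0.0577).

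In all, 5 of the 10 enzymes were called lower and 0 higher in MCD diet livers by limma (8 lower and 0 higher at an unadjusted p under 0.05, a rule that takes 10.4% of all genes as lower and 13.8% as higher). Over all genes the adjusted share called lower was 3.62% and the share called higher 6.37%, 9.98% in either direction. Since calls are more frequent among strong signals, a second background is the 910 genes whose normal diet signal was at least that of the dimmest enzyme. Of these 25.2% were called lower, but they were chosen on the normal diet arrays alone, which favours genes lower in MCD diet livers. Of the 11090 genes left without the dimmest 50% by the mean of all 4 arrays, 815 were called lower, and 20.4% were called in either direction. That set takes in genes far dimmer than the enzymes, so it is not matched in signal. The median normal diet signal of all genes was 2.95, against 8.05 for the dimmest enzyme. The median difference of the 10 was -0.92, against -0.03 over all genes. For 8 of the 10 both MCD diet arrays lay below both normal diet arrays, as they did for 29.2% of all genes. For Acox2 they lay above, as for 25% of all genes. The calls of Cyp7b1, Slc27a5 and Cyp27a1 held under all 13 alternative settings.

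**Figure D3:**
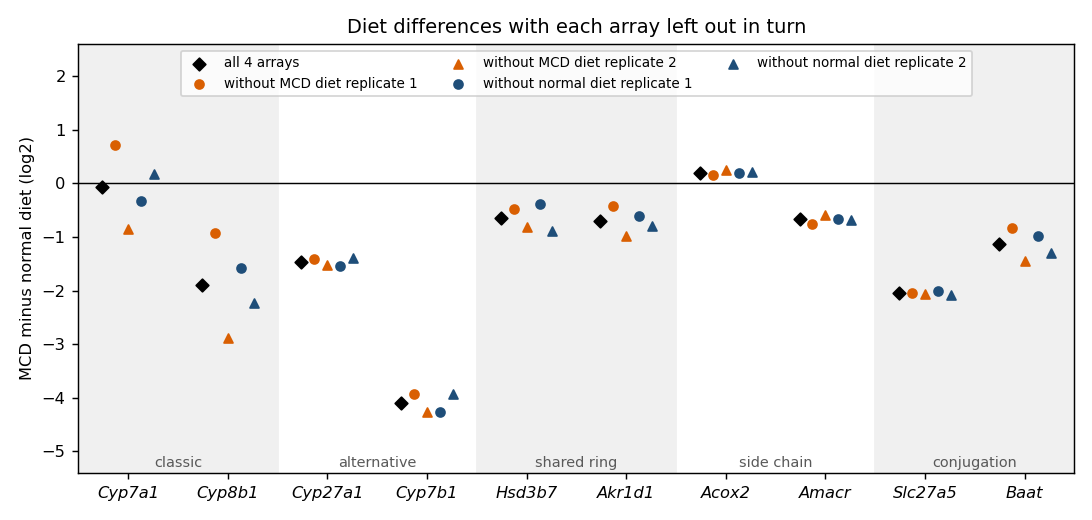
Difference in log2 signal, MCD diet minus normal diet (vertical axis), of the 10 enzymes with all 4 arrays (black diamonds) and with 1 array left out, an MCD diet array in orange or a normal diet array in blue. Slc27a5 stays between -2.09 and -2.01, while Cyp7a1 moves from -0.86 to 0.71 and Cyp8b1 from -2.88 to -0.92 with the MCD diet array that is left out.

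Markers of other liver cell types were examined beside the enzymes. Over all genes limma called 6.37% higher and 3.62% lower (13.8% and 10.4% at an unadjusted p under 0.05). Of 15 measured markers of hepatocytes, the cells that make bile acids, limma called 1 lower (Apoa1) and 0 higher (2 and 1 at an unadjusted p under 0.05). Their summed log2 signals were 165 and 165 in MCD diet livers and 166 and 166 in normal diet livers. The normal diet means of these markers began at 10.3 and reached close to the arrays' maximum of 12.1, and whether signals so strong can show a decrease was not tested. Of the hepatocyte zones, 2 of 11 pericentral markers were called higher and 1 lower, and 1 of 10 periportal markers higher and 2 lower. At an unadjusted p under 0.05 these counts were 4 higher and 1 lower of the pericentral and 2 higher and 5 lower of the periportal markers, and up to 4 periportal markers were called lower under the alternative settings. The pericentral sums were 88.5 and 91.8 in MCD diet livers, against 86.3 and 88.6 in normal diet livers, and the periportal sums were 84.9 and 81.8 in MCD diet livers, against 88.1 and 86.7 in normal diet livers. Cholangiocyte markers were called higher in 7 of 8 (4 when replicate 1 of either diet was left out), with sums of 37.8 and 36.7 in MCD diet livers, against 24.8 and 23.6 in normal diet livers. Macrophage markers were called higher in 6 and lower in 1 of 10, with sums of 71.8 and 64.6 in MCD diet livers, against 49.0 and 48.0 in normal diet livers, and 5 to 8 were called higher over the alternative settings. MCD diet replicate 1, the array lower in Cyp7a1 and Cyp8b1, thus had the higher macrophage and periportal sums and the lower pericentral sum of the MCD diet arrays. Markers of stellate cells and fibroblasts were called higher in 6 of 10, and in fewer when replicate 2 of either diet was left out. Their sums were 62.1 and 64.6 in MCD diet livers, against 51.5 and 48.8 in normal diet livers. Endothelial markers were called lower in 3 of 8, and in fewer when replicate 1 of either diet was left out. Of 7 lymphocyte markers limma called 0 (1 higher and 2 lower at an unadjusted p under 0.05). By that unadjusted rule 7 cholangiocyte, 7 macrophage and 10 stellate cell and fibroblast markers were higher. The same rule took 1 macrophage and 5 endothelial markers as lower. The part of these shifts in the enzymes' differences, and in the gap between the MCD diet arrays, was not tested. In whole liver, fewer cells of a type and less RNA per cell cannot be told apart.

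Other genes of bile acid synthesis went both ways. Of the 8 on a list of further synthesis genes, 1 rose, 1 fell and 6 did not pass (1 higher and 2 lower at an unadjusted p under 0.05). Over all genes limma called 6.37% higher and 3.62% lower. Cyp39a1, which hydroxylates a cholesterol oxidation product of brain origin at the ring position used by Cyp7b1, had log2 signals of 8.25 and 8.06 in MCD diet livers, against 7.27 and 6.94 in normal diet livers. It rose by 1.05 ± 0.16, or 2.07-fold (limma adjusted p = 0.0132), a call lost when MCD diet replicate 1 or normal diet replicate 2 was left out (highest limma adjusted p = 0.0712). Scp2, a peroxisomal thiolase and sterol carrier that completes side-chain cleavage, fell by 0.88 ± 0.16 (limma adjusted p = 0.0249), a call lost without MCD diet replicate 1 or either normal diet array (highest limma adjusted p = 0.105). Cyp2c70, which makes the muricholic acids typical of mice, differed by -0.66 ± 0.20 and did not pass (limma adjusted p = 0.109). Of 3 genes of taurine supply 0 passed in limma, and 1 did at an unadjusted p under 0.05, Cdo1, which also passed with an intensity trend in the moderation (limma adjusted p = 0.0304). Cdo1, which starts the conversion of cysteine to taurine, had log2 signals of 10.38 and 10.55 in MCD diet livers, against 11.05 and 10.90 in normal diet livers (difference -0.51 ± 0.13, limma adjusted p = 0.0703), and Csad, which acts after it, differed by -0.39 ± 0.36 (limma adjusted p = 0.586).

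Among 17 measured regulators of bile acid metabolism 4 fell and 0 rose in limma (6 lower and 0 higher at an unadjusted p under 0.05), at a median difference of -0.29. The share called lower was 3.62% over all genes. The 25.2% of the strong-signal genes above is not a matched share, since the regulators' normal diet means began at 2.42. The 4 called lower had normal diet means of 6.03 to 7.95, under that set's cut of 8.05. The regulators' count dropped to 0 without normal diet replicate 2, to 1 without any other array and to 2 with the replicate block. Nr0b2, the repressor of Cyp7a1 and Cyp8b1, had log2 signals of 5.30 and 4.20 in MCD diet livers, against 6.87 and 6.72 in normal diet livers. It fell by 2.05 ± 0.34, or 4.15-fold (limma adjusted p = 0.0174), and the call was lost without either normal diet array (highest limma adjusted p = 0.0671). In both diets the replicate with the higher Cyp7a1 signal, replicate 2, had the lower Nr0b2 signal. Cyp8b1 was higher on replicate 2 only in the MCD diet (5.47 and 7.43). In the normal diet it was lower on replicate 2 (8.68 and 8.03), as Nr0b2 was. The Nr0b2 gap was -1.10 between the MCD diet arrays, where 0.415% of genes had a larger one. Between the normal diet arrays it was only -0.15, where 48.6% of genes had a larger one. Over 4 arrays any link of Cyp7a1 or Cyp8b1 to Nr0b2 was not tested. Its inducer Nr1h4 had log2 signals of 7.63 and 8.29 in MCD diet livers, against 8.08 and 8.53 in normal diet livers, and did not pass (-0.34 ± 0.26, limma adjusted p = 0.496). Nr1i2 (PXR), a sensor of foreign compounds and of toxic bile acids, fell by 0.84 ± 0.17, and Fgfr4, the receptor through which the gut hormone FGF15 lowers Cyp7a1 in mice, fell by 0.69 ± 0.14. Nr5a2 (LRH-1), an activator of Cyp7a1 and Cyp8b1, fell by 0.57 ± 0.13 (limma adjusted p = 0.0492). The call of Nr1i2 was lost when either MCD diet array or normal diet replicate 2 was left out (highest limma adjusted p = 0.154), and those of Fgfr4 and Nr5a2 were lost with any 1 array left out and with the replicate block, that of Nr5a2 also under quantile normalization and median centring (highest limma adjusted p = 0.15 for Fgfr4 and 0.189 for Nr5a2). Hnf4a, which activates several of the 10 genes, differed by -0.44 ± 0.16 (limma adjusted p = 0.161).

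Of 15 measured transporters of bile acids and biliary lipids 3 fell and 1 rose (8 lower and 2 higher at an unadjusted p under 0.05). Over all genes limma called 3.62% lower and 6.37% higher. Fewer transporters were called lower when either normal diet array was left out. The uptake carrier Slc10a1 (NTCP), the main importer of conjugated bile acids into hepatocytes, had log2 signals of 9.21 and 10.00 in MCD diet livers, against 10.86 and 10.70 in normal diet livers. It fell by 1.18 ± 0.26, or 2.26-fold (limma adjusted p = 0.043), a call lost without MCD diet replicate 1, without either normal diet array, with the replicate block and under quantile normalization (highest limma adjusted p = 0.142). The organic anion carrier Slco1a1 had log2 signals of 2.54 and 2.32 in MCD diet livers, against 9.35 and 9.41 in normal diet livers. It was called lower, but the MCD diet signals lie under the medians of all rows on those arrays (2.57 and 2.63), so the size of its decrease is not well measured. Slco2b1, another carrier of this family, fell by 1.29 ± 0.24, a call lost when either normal diet array was left out (highest limma adjusted p = 0.101), and its difference was -0.71 with its rows averaged. Abcc4 (MRP4), an exporter on the blood side of the hepatocyte, had log2 signals of 7.40 and 6.82 in MCD diet livers, against 3.23 and 3.20 in normal diet livers. It rose by 3.90 ± 0.20, or 14.9-fold (limma adjusted p = 0.00049), and held with any array left out. Abcb11 (BSEP), the pump that secretes bile acids into bile, differed by -0.37 ± 0.14 and did not pass (limma adjusted p = 0.167).

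**Figure D4:**
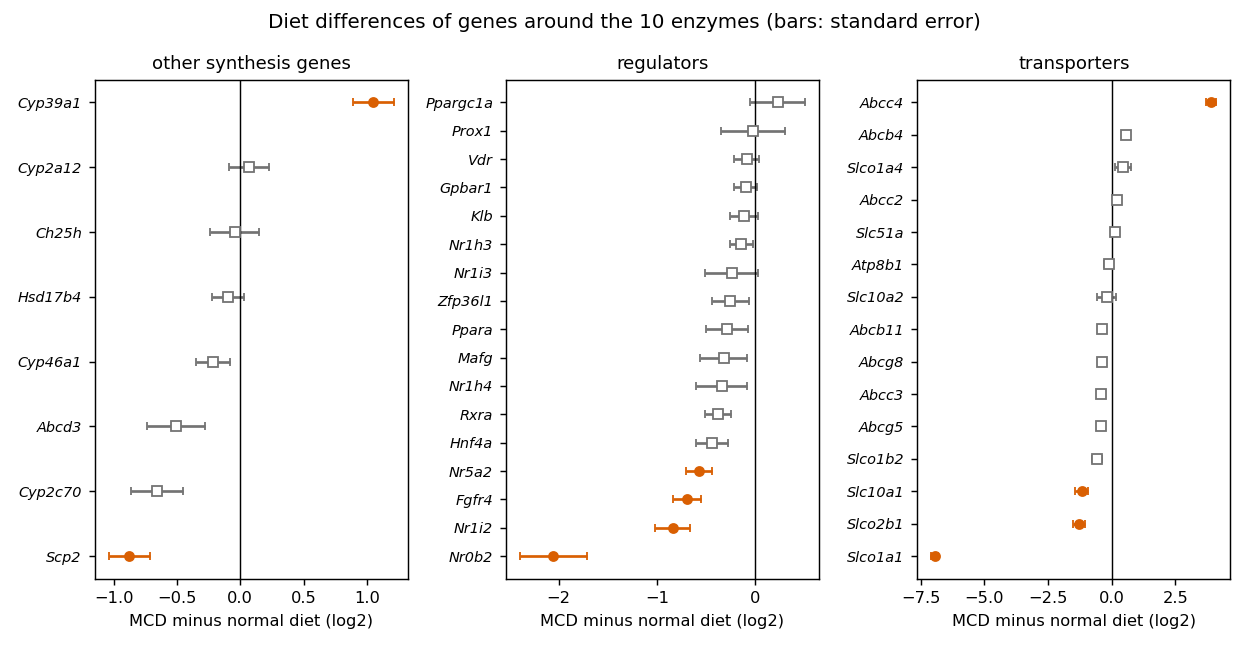
Difference in log2 signal, MCD diet minus normal diet (horizontal axis, with its own range in each panel), of other synthesis genes, regulators and transporters, ordered from highest to lowest. Filled orange circles passed an adjusted p of 0.05, open grey squares did not, and bars are standard errors. Nr0b2 (-2.05) lies lowest among the regulators, and Abcc4 (3.90) lies highest among the transporters. The size of the decrease of Slco1a1 is uncertain, since its MCD diet signals lie under the arrays' medians.

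Peroxisomes house Acox2, Amacr, Baat and part of the Scp2 product, and of 22 other peroxisome genes 4 fell and 1 rose, at a median difference of -0.22. At an unadjusted p under 0.05, 9 were lower and 1 higher. Over all genes limma called 3.62% lower and 6.37% higher. The 25.2% of the strong-signal genes is not a matched share here either, since the peroxisome genes' normal diet means began at 4.22. Fewer peroxisome genes were called lower when either normal diet array was left out. Pecr, a reductase of fatty acid chains, fell by 1.67 ± 0.21. Phyh, which starts the breakdown of branched phytanic acid, fell by 1.23 ± 0.15. Pex6, an ATPase that recycles the import receptor, fell by 0.78 ± 0.12, and Abcd2, a transporter of fatty acyl-CoA, rose by 2.49 ± 0.42. The calls of Pecr and Phyh held with any array left out, that of Pex6 was lost with each, and that of Abcd2 was lost when replicate 2 of either diet was left out (highest limma adjusted p = 0.0729 for Pex6 and 0.0593 for Abcd2). Of 8 measured genes of cholesterol synthesis, uptake and transport, which supply the substrate, 0 passed in limma (2 lower at an unadjusted p under 0.05, and up to 1 called in each direction over the alternative settings), at a median difference of 0.17. Sqle and Hmgcs1, enzymes of cholesterol synthesis, stood far apart between the normal diet arrays. Sqle had log2 signals of 7.09 and 7.17 in MCD diet livers, against 7.19 and 4.80 in normal diet livers, and Hmgcs1 had 8.48 and 9.17 in MCD diet livers, against 9.80 and 7.62 in normal diet livers. Of the lists around the 10 enzymes 11 genes were not analysed here.

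The genes whose profile over the 4 arrays most resembled that of the pathways' ring hydroxylases were sought by the root mean square distance between log2 signals centred on each gene's mean. Nearest to Cyp7b1 were Dpys, a pyrimidine-degrading enzyme (distance 0.0947), the complement component C6 (0.154) and Mup-ps12 (0.178), a pseudogene whose probes may share signal with other major urinary protein genes. Dpys had log2 signals of 4.46 and 4.69 in MCD diet livers, against 8.48 and 8.63 in normal diet livers. Nearest to Cyp7a1 were Paqr9, a membrane receptor family gene (0.204), the transglutaminase Tgm1 (0.22) and the chemokine Cxcl11 (0.247). Paqr9 had log2 signals of 6.45 and 7.79 in MCD diet livers, against 7.38 and 7.73 in normal diet livers, so that it too was lowest on MCD diet replicate 1 and highest on replicate 2. These likenesses describe 4 arrays of 2 diets and carry no test.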

How the data were processed

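Liver RNA was measured on 4 Mouse Gene ST arrays, 2 per diet. Per the submitters' processing notes, the authors made the deposited log2 signals in Transcriptome Analysis Console. The sources used here do not give its version or how it summarized, background-corrected and normalized the arrays. The base of the logarithm was inferred from the values, which reach 12.1, and all folds depend on it. Medians over all 34472 rows were 2.57 and 2.63 on the MCD diet arrays and 2.63 and 2.65 on the normal diet arrays. Background and detection values were not used here, and the number of arrays limits the precision.

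The platform annotation named 1 gene for 23521 rows, several for 1814 and none for 9137. Only the first were tested, each gene by its row with the highest mean, which gave 22180 genes. The deposited values were fitted in R 4.3.3 with limma 3.58.1 (two-sided, moderated by empirical Bayes, without a block), and p-values were adjusted by Benjamini-Hochberg over all genes, with a threshold of 0.05. The fit was tested on simulated data. The 10 enzymes and all lists were chosen with earlier results of these data known. Named were the 10 enzymes, up to 4 called genes per further list with the largest differences, and 9 fixed regulators, transporters and enzymes. Also named were the 3 genes nearest to Cyp7a1 and to Cyp7b1, with the 10 enzymes and Gm or Rik names left out. Apoa1, Sqle and Hmgcs1 were named after their values were seen. Marker lists are given by counts. Promoter sequences are those of RefSeq on GRCm38.p6. The comparison of protein sequences that had been planned was not made.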

Additional observations from a re-analysis of the deposited data

How the results depend on the processing

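The enzymes' differences and counts, the count over all genes, the list counts and the named genes' differences were recomputed under quantile normalization, median centring, without the dimmest 25% or 50% of genes, with an intensity trend, with a gene's rows averaged, with all rows tested, by an unadjusted p under 0.05 with 2-fold change, with a replicate block, and without each array in turn. The count of the 10 enzymes called lower stayed at 5 except for 4 with the replicate block and 3 to 6 with an array left out, and 0 were called higher in any. All genes called numbered 2214, 1155 by the unadjusted rule, 1950 with the replicate block and 1050 to 1493 with an array left out. The gap between the classic and the alternative pair was recomputed only under the normalizations, averaged rows, the block and left-out arrays, and ranged from 1.02 to 2.56 with an array left out. Marker sums, list medians and likeness distances were not recomputed. Cyp7a1 changed sign under quantile normalization (0.00077), and with an array left out it ranged from -0.86 to 0.71, above 0 when MCD diet replicate 1 (0.71) or normal diet replicate 2 (0.18) was absent. Signs also turned with an array left out for Csad (-0.92 to 0.14), Paqr9 (-1.11 to 0.23), Tgm1 (-1.24 to 0.30) and Cxcl11 (-0.52 to 0.40, and 0.063 without normal diet replicate 2). The cause was not tested. Of the 130 recomputed differences of the 10 enzymes, 115 kept direction and call, 9 lost a call (Amacr and Baat), 3 gained one (Cyp8b1 and Akr1d1) and 3 changed sign. The regulators called lower numbered 0 to 4 over the settings. Replicate numbers are shared by the diets but no label ties them to a litter or batch, and the deviations of same-numbered arrays correlated at 0.0537 across genes. The replicate block moved the call of Baat and no other of the 10. With 2 arrays per diet, changes near 2-fold in variable genes such as Cyp7a1 cannot be resolved.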
